A study of Homo sapiens with 22 samples.

Results

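The MYC and PVT1 stretch of chromosome 8 was followed in 13 peak lists from K562, a human erythroleukaemia cell line. Its members were all peaks that start between 128.2 and 131.0 Mb on hg19, a length of 2.80 Mb cut into 56 bins of 50 kb. In all, 795 of 1311182 peaks in the 13 lists were members, counting chromosomes 1 to 22 with X and Y. MYC spans 128.748 to 128.754 Mb and PVT1 spans 128.807 to 129.113 Mb. The lists hold no enhancer mark, so the name enhancer domain, often given to this stretch, could not be checked against them.

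All cells were stable transfectants with the BirA plasmid pEF1aBirAv5-neo, which encodes a biotin ligase. WT1 −KTS cells also carried pEF1a-Flagbiotin-(WT1+17AA/-KTS)-puro, and WT1 +KTS cells carried pEF1a-Flagbiotin-(WT1+17AA/+KTS)-puro. Untagged cells carried no further plasmid. All samples were crosslinked with 1% formaldehyde for 10 minutes. Whether a line is 1 clone is not given in the sources used here, and the tagged WT1 was introduced protein, not the cells' own. Streptavidin capture gave 2 lists of WT1 −KTS, 3 of WT1 +KTS and 3 of untagged cells, and H3K4me3 immunoprecipitation gave 3 lists of −KTS and 2 of +KTS cells. Nothing in the labels says that replicates came from separate cultures, so each p-value reflects spread among these libraries alone, which may be technical.

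WT1 is a zinc finger transcription factor, and its splice forms differ in whether KTS, a run of lysine, threonine and serine, stands between zinc fingers. The form without KTS is known as a DNA-binding regulator of GC-rich promoters, and the form with KTS is known for weaker DNA binding and for association with RNA processing. MYC encodes a transcription factor that drives growth and division and is widely active in leukaemia. PVT1 is a long noncoding RNA gene next to MYC that hosts several microRNAs, and its promoter and introns are known to hold elements that act on MYC. Distant enhancers of MYC in blood cells lie downstream of PVT1. H3K4me3 is a histone mark of active promoters. In RefSeq's gene order on GRCh38, MYC follows CASC11, and PVT1 is followed by MIR1208, LINC00824, CCDC26, GSDMC, CYRIB and ASAP1. That build differs from hg19, so no peak was placed at these neighbours.

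The lists differed strongly in length, from 101 peaks in untagged replicate 2 to 543203 in WT1 +KTS replicate 1, and the lowest score was 50 in lists of −KTS cells and 13 in all others. Read depth is unknown from the lists. Names of the WT1 +KTS and untagged lists of the same number share a code, and no list of −KTS cells has one. Isoform, lowest score and a possible batch therefore cannot be told apart. Levels are therefore given as relative density, the peaks per Mb of a stretch divided by the peaks per Mb of the whole list. A value of 1 means the density of the whole list.

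The untagged capture had 2 peaks here in all, from whole lists of 743, 101 and 311 peaks, while the longer tagged lists had many. WT1 −KTS replicates 1 and 2 had 113 and 2 peaks in the stretch. WT1 +KTS replicates 1, 2 and 3 had 304, 207 and 27. Untagged replicates 1, 2 and 3 had 2, 0 and 0. The short WT1 −KTS list of replicate 2 thus equalled untagged replicate 1, and the other tagged lists exceeded every untagged list. Between the 5 tagged and 3 untagged lists, log10 of the number of peaks plus 1 was 1.76 ± 0.82 (SD, n = 5) and 0.159 ± 0.28 (SD, n = 3). This is a ratio of 39.6 on that scale (two-sided exact permutation test, p = 0.0536, where 0.0179 is the smallest p of 56 splits). These counts were not divided by list length, and the tagged lists held 3245 to 543203 peaks in all. The comparison therefore reflects list length as well and cannot show enrichment in this stretch. The difference in log10 of 1.60 became 1.53 when only peaks scoring 50 or more were kept (exact permutation p = 0.0357), 1.92 without WT1 −KTS replicate 2 (exact p = 0.0286) and 1.76 without untagged replicate 1 (exact p = 0.0476). Leaving out any of the other 6 libraries gave an exact p between 0.0857 and 0.0952. For +KTS alone the ratio was 84.0 (exact permutation p = 0.1, the smallest for 3 lists against 3). For −KTS alone it was 12.8 (exact permutation p = 0.2). Leaving out 1 library moved the log10 difference for +KTS from 1.92 to between 1.72 and 2.24. For −KTS it moved from 1.11 to 0.318 without WT1 −KTS replicate 1 and to 1.90 without WT1 −KTS replicate 2. Relative to list length the order was the other way for untagged replicate 1, whose 2 peaks were 0.269% of its list, a relative density of 2.98, above every tagged list. An untagged list of 101 peaks with none in the stretch allows a share of up to 2.97%, and one of 311 peaks a share of up to 0.965%, so these lists bound the background loosely. These floors and the binomial intervals below cover counting error only.

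The 2 untagged peaks lay far downstream of PVT1, on chromosome 8 at 130490516 to 130490664 with a score of 36 and at 130931266 to 130931419 with a score of 57. The second met a peak of 1 WT1 +KTS list and the first met none. No untagged peak lay at MYC or in PVT1. Of the 56 bins, the untagged lists filled 2, 0 and 0 bins (1.13%, 0.163% and 0.454% of all 50 kb bins).

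As a whole the stretch was not rich in peaks of either kind. Its relative density was 0.807 and 0.681 in WT1 −KTS, and 0.619, 0.613 and 0.842 in WT1 +KTS. In H3K4me3 it was 0.726, 0.937 and 0.771 in −KTS cells, against 0.364 and 0.873 in +KTS cells. Every one of these 10 lists was below the density of its whole list. As a share of the list, the stretch held 0.0673% ± 0.0081 (SD, n = 2) of the WT1 −KTS peaks, against 0.0625% ± 0.012 (SD, n = 3) for WT1 +KTS (two-sided exact permutation p = 0.6). For H3K4me3 the shares were 0.0734% ± 0.010 (SD, n = 3) in −KTS cells, against 0.0560% ± 0.033 (SD, n = 2) in +KTS cells (exact permutation p = 0.5). With 2 lists against 3, the smallest p is 0.1, so no difference of the isoforms could pass 0.05 here.

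The low average hid an uneven pattern, seen in the map of peaks per bin. In the longer lists WT1 peaks were dense across PVT1 and thin upstream of MYC and downstream of PVT1, whereas H3K4me3 was concentrated at the starts of MYC and PVT1. In the 2 bins at MYC, WT1 −KTS replicate 1 had 1.8 times the mean of all bins. WT1 +KTS replicates 1 and 2 had 1.03 and 0.746 times the mean there. Their higher density at MYC showed only in the narrower MYC window given below. WT1 −KTS replicate 1 had a peak in 40 of the 56 bins (67.6% of all 50 kb bins of that list's chromosomes held one), and WT1 −KTS replicate 2 in 2 (4.48% of all bins). WT1 +KTS replicates 1, 2 and 3 filled 54, 46 and 19 bins (87%, 75.7% and 36.2% of all bins). In −KTS cells H3K4me3 filled 6, 18 and 13 bins (17.6%, 29% and 25.7% of all bins), and in +KTS cells 8 and 27 (24.2% and 42.4%). These counts are close to what the background shares give for 56 bins in most lists, so the number of filled bins did not set the stretch apart.

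Recurrence of bins was near the background in the WT1 groups. In at least 2 lists of a group, a peak was found in 2 bins for WT1 −KTS (4.27% of all bins) and in 48 for WT1 +KTS (76.7%), of which 16 held one in all 3 lists (33.9%). For untagged cells this was 0 bins (0.0678% in 2 lists and 0.00162% in all 3). For H3K4me3 it was 12 bins in −KTS cells (24.5%), of which 5 in all 3 lists (15.5%), against 8 bins in +KTS cells (22.7%).

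**Figure D1:**
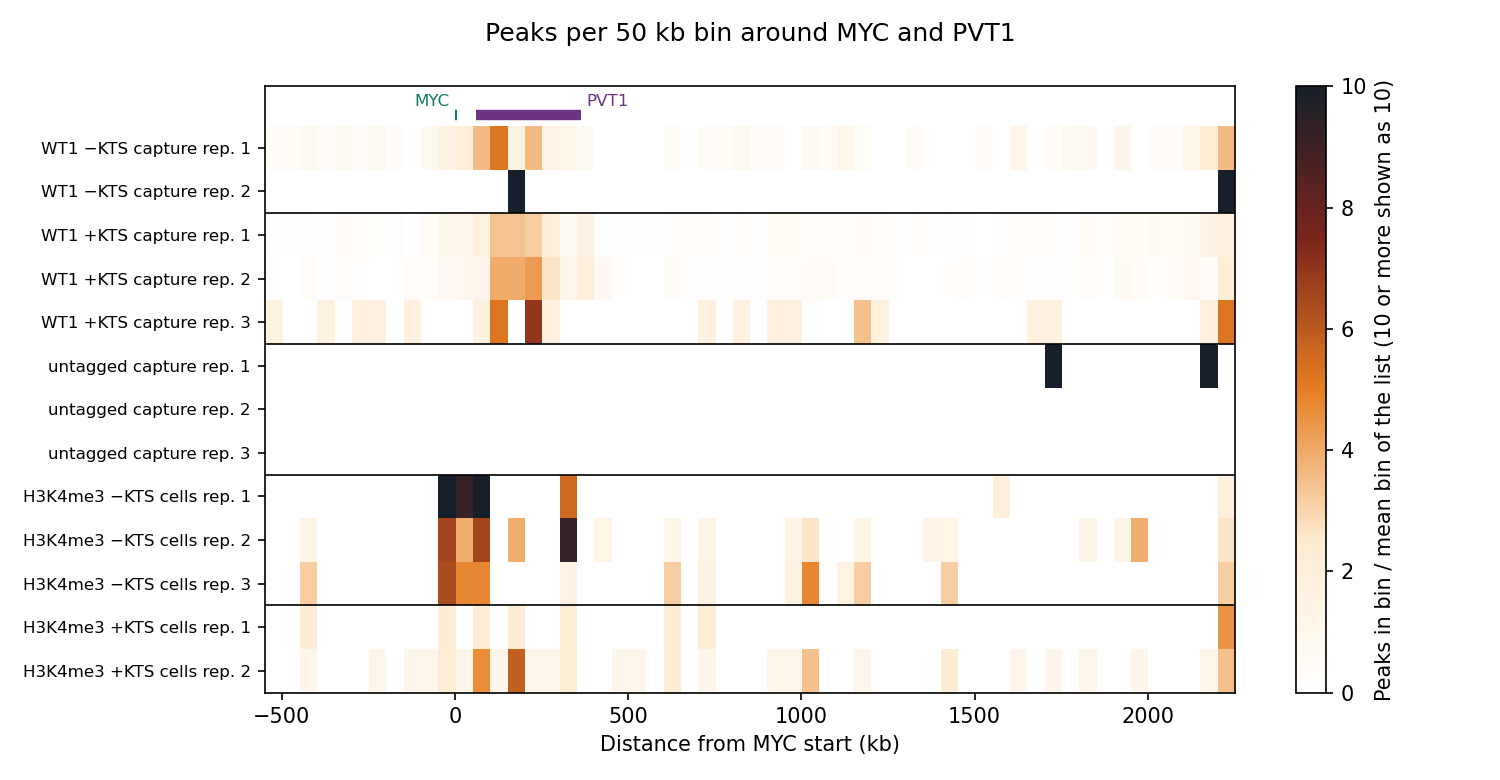
Peaks per 50 kb bin in the 13 lists (rows), divided by the mean bin of the same list (colour), against distance from the MYC start in kb; 1 peak of a very short list already reaches the top of the colour scale. WT1 captures are darker over part of PVT1 than in most other bins. The last bin is pale in WT1 +KTS replicates 1 and 2 (1.709 and 2.155 times the mean bin) and darker in the other WT1 lists. H3K4me3 of −KTS cells is dark at MYC and the PVT1 start, and the untagged lists hold 2 peaks, both far downstream.

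At MYC, H3K4me3 was called in all 5 lists and WT1 in 3 of 5. H3K4me3 lists of −KTS cells had 11, 7 and 7 peaks within MYC and 5 kb either side, and those of +KTS cells 1 and 2. The covered length was 3.73, 5.25 and 4.05 kb in −KTS cells, against 5.33 and 4.14 kb in +KTS cells. The covered lengths of the cells overlapped, with means of 4.34 kb ± 0.80 (SD, n = 3) and 4.73 kb ± 0.84 (SD, n = 2). This comparison was chosen after the data were seen (two-sided exact permutation p = 0.5). By number of peaks, the relative density at MYC was 63.5, 28.7 and 34.97 in −KTS and 7.07 and 7.28 in +KTS cells, without overlap (exact permutation p = 0.1, the smallest possible, and 0.6 after Benjamini-Hochberg adjustment over 6 stretches). The median peak width there was 230, 387 and 268 bp in −KTS cells, against 5326 and 2068 bp in +KTS cells. The mark was thus called as more and narrower peaks in −KTS cells, and the number of peaks does not measure its amount.

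Merged over lists, the mark at MYC was 1 region on chromosome 8 at 128746940 to 128753285, found in all 5. Such regions made up 16.2% of H3K4me3 regions of any list over all chromosomes, and here they were 2 of 67. Scores are the authors' own and can rank peaks only within a list. The best MYC peak was outscored by 1.42%, 8.57% and 5.69% of the lists of −KTS cells and by 3.38% and 8.39% of those of +KTS cells. MYC thus stood among the strong peaks of each H3K4me3 list.

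WT1 peaks at MYC ranked lower within their own lists. WT1 −KTS replicate 1 had 3 peaks in the MYC window, and WT1 +KTS replicates 1 and 2 had 7 and 5. WT1 −KTS replicate 2 and WT1 +KTS replicate 3 had none. The relative density of WT1 in the MYC window was 3.75 and 0 in −KTS, and 2.49, 2.59 and 0 in +KTS (exact permutation p = 1, adjusted p = 1). The best of these peaks was outscored by 27.6% of its list in WT1 −KTS replicate 1, and by 39.0% and 21.4% in WT1 +KTS replicates 1 and 2. The 3 lists met, at places picked after their values were seen, at 128747205 to 128747626, just before the MYC start, and at 128749203 to 128749478, within MYC, and both places lay inside the H3K4me3 region. Scores at the first place were 115 in WT1 −KTS replicate 1 and 46 and 89 in WT1 +KTS replicates 1 and 2. At the second they were 99, 45 and 67. Of the peaks in the MYC window, 2 of 3, 3 of 7 and 4 of 5 lay at H3K4me3 regions called in at least 2 lists of the same cells. Over the whole lists that share was 4.49%, 3.13% and 7.15%. The merged H3K4me3 region spans 6346 bp of this 16 kb window, so a high share is partly set by the choice of window. The whole-list shares are therefore not a like comparison.

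**Figure D2:**
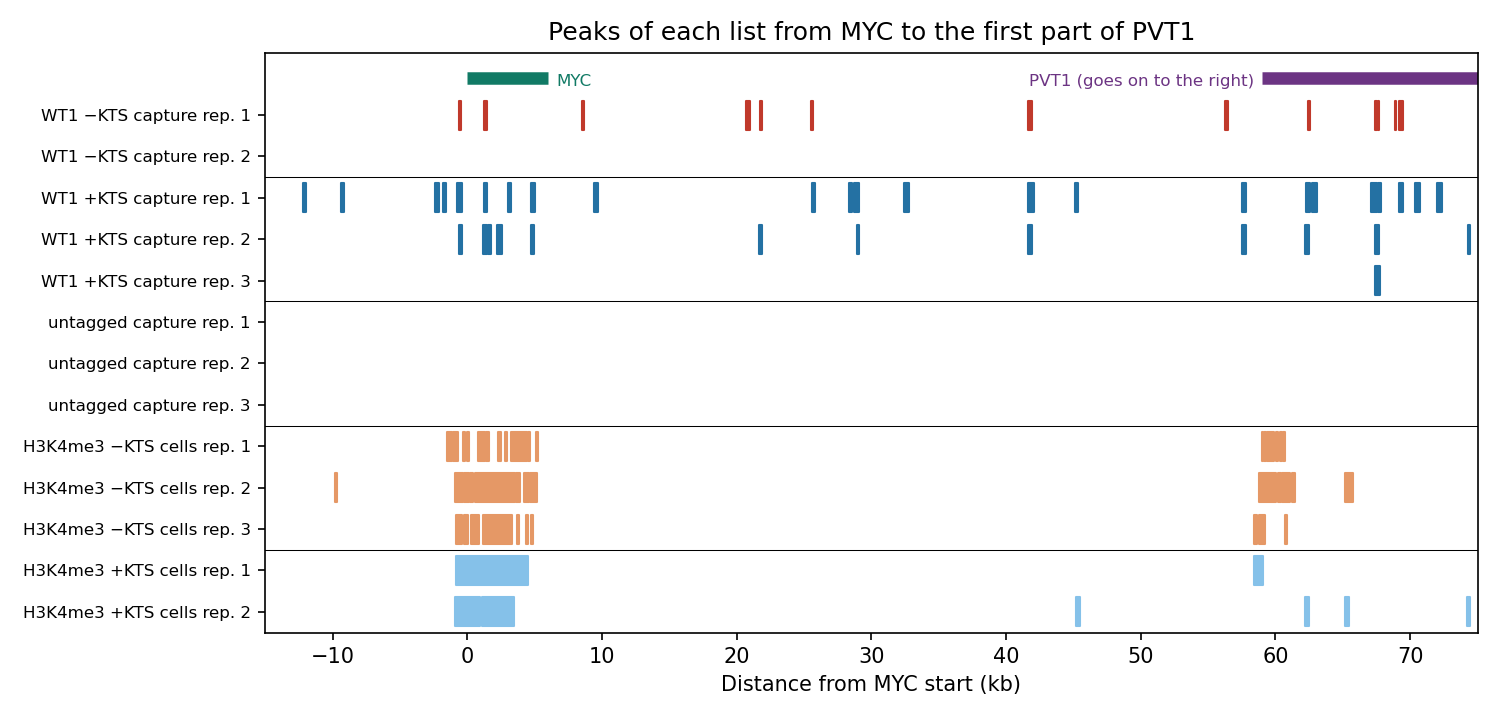
Peaks of each list (rows, coloured by group) from 15 kb before to 75 kb after the MYC start, drawn to scale on a kb axis. H3K4me3 covers MYC in all 5 lists and the PVT1 start in 4, and part of the WT1 peaks lie inside the mark at MYC. No WT1 peak meets the mark over the PVT1 start itself. Further into the gene, 1 H3K4me3 peak of +KTS replicate 2 coincides with a WT1 place.

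Over the PVT1 start, H3K4me3 was called in 4 of 5 lists and no WT1 peak met it. Within 5 kb of the start, H3K4me3 had 6, 4 and 3 peaks in −KTS cells, against 1 and 1 in +KTS cells. The covered length was 1.21, 2.27 and 0.894 kb in −KTS cells, against 0.682 and 0.259 kb in +KTS cells. The −KTS lists were all above the +KTS lists. The means were 1.46 kb ± 0.72 (SD, n = 3) and 0.471 kb ± 0.30 (SD, n = 2), in a comparison chosen after the data were seen (two-sided exact permutation p = 0.2). The region at 128806384 to 128808451, over the start itself, had best scores of 180, 854 and 444 in −KTS cells and 391 in +KTS replicate 1. It was not called in H3K4me3 +KTS replicate 2, although that list was the longest of the 5.

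The only H3K4me3 peak of that list near the PVT1 start, with a score of 66, coincided with a WT1 place further into the gene at 128810223 to 128810538. WT1 −KTS replicate 1 and WT1 +KTS replicates 1 and 2 had peaks there, with scores of 110, 39 and 58. In the window as a whole, these 3 lists had 2, 3 and 2 WT1 peaks and the other WT1 lists none. The relative density there was 4 and 0 in −KTS, and 1.71, 1.66 and 0 in +KTS (exact permutation p = 0.9, adjusted p = 1). The H3K4me3 region over the PVT1 start and the adjoining region at 128808484 to 128809061 met 0 WT1 lists of either isoform.

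Across the rest of PVT1, all 5 WT1 lists were denser than their whole list, while at MYC and the PVT1 start this held for 3 of them. In WT1 −KTS replicate 1 the MYC and PVT1 start windows were denser than the rest of PVT1. In WT1 +KTS replicate 1 the MYC window was slightly denser than the rest of PVT1 (2.49 against 2.44). WT1 −KTS replicates 1 and 2 had 40 peaks and 1 peak in this 301 kb. WT1 +KTS replicates 1, 2 and 3 had 129, 109 and 9. The relative density was 2.66 and 3.17 in −KTS and 2.44, 3.00 and 2.61 in +KTS, a narrow range for lists of such different length, although 1 of these values rests on a single peak. The isoforms did not separate, with means of 2.91 ± 0.36 (SD, n = 2) and 2.68 ± 0.29 (SD, n = 3; two-sided exact permutation p = 0.5, adjusted p = 1). WT1 peaks covered 1.87% and 0.0525% of the rest of PVT1 in −KTS, where whole lists covered 0.807% and 0.0178% of the genome. In +KTS they covered 16.01%, 10.6% and 0.719%, where whole lists covered 6.64%, 3.87% and 0.278%.

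H3K4me3 was uneven there. It had 3, 11 and 1 peaks in the rest of PVT1 in −KTS cells, against 2 and 13 in +KTS cells. The relative density was 0.920, 2.40 and 0.266 in −KTS cells, against 0.752 and 2.52 in +KTS cells (exact permutation p = 0.7, adjusted p = 0.84), so 3 of the 5 lists lay below their whole list. The most recurrent region of the mark inside PVT1 was at 129061251 to 129062013, in 4 of 5 lists, with scores of 105 and 89 in −KTS replicates 2 and 3 and 165 and 201 in +KTS cells. It met peaks of 2 WT1 +KTS lists and of no WT1 −KTS list.

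Within PVT1 the bins from 128.85 to 129.05 Mb held most of the WT1 peaks. They were picked after their values were seen. These 4 bins had 30 peaks in WT1 −KTS replicate 1 and 1 in replicate 2, and 106, 90 and 8 in WT1 +KTS replicates 1, 2 and 3, or 3.00, 4.77, 3.02, 3.73 and 3.49 times the mean of all bins. Single bins with at least 3 times the mean numbered 4 and 2 in WT1 −KTS, of which 3 and 1 in PVT1 (8.06% and 4.48% of all bins). In WT1 −KTS replicate 2 a bin with 1 peak was already 19.1 times the mean, so its dense bins only restate its 2 peaks. Its value of 4.77 likewise rests on 1 peak. In WT1 +KTS they numbered 3, 3 and 4, of which 3, 3 and 2 in PVT1 (8.84%, 9.95% and 12.6%). H3K4me3 had 4, 6 and 9 such bins in −KTS cells (12.2%, 11% and 15.9%), against 1 and 4 in +KTS cells (10.5% and 10.4%). H3K4me3 in the same bins had 0, 3 and 0 peaks in −KTS cells, against 1 and 8 in +KTS cells. The 4 bins after PVT1, from 129.15 to 129.35 Mb, were almost empty of WT1, with 0 and 0 peaks in −KTS and 4, 5 and 0 in +KTS. The fall from gene to flank was thus present in the long lists of both isoforms.

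Density of this order was not rare elsewhere. Over the 7 bins that touch PVT1, WT1 −KTS replicates 1 and 2 had 44 peaks and 1 peak, and WT1 +KTS replicates 1, 2 and 3 had 140, 116 and 9. Among all runs of 7 bins, 9.67% and 22.2% held at least as many in −KTS, and 14.1%, 11.4% and 12.2% in +KTS. For H3K4me3 the PVT1 bins, which include the gene's start, had 9, 15 and 4 peaks in −KTS cells (14.7%, 8.68% and 39.2% of all runs had as many) and 3 and 14 in +KTS cells (38.5% and 11.5%). PVT1 therefore belonged to the denser part of the genome in WT1 −KTS replicate 1 and the WT1 +KTS lists, without being exceptional in any. For WT1 −KTS replicate 2, with 1 peak, the 22.2% is only the share of runs that hold any peak.

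**Figure D3:**
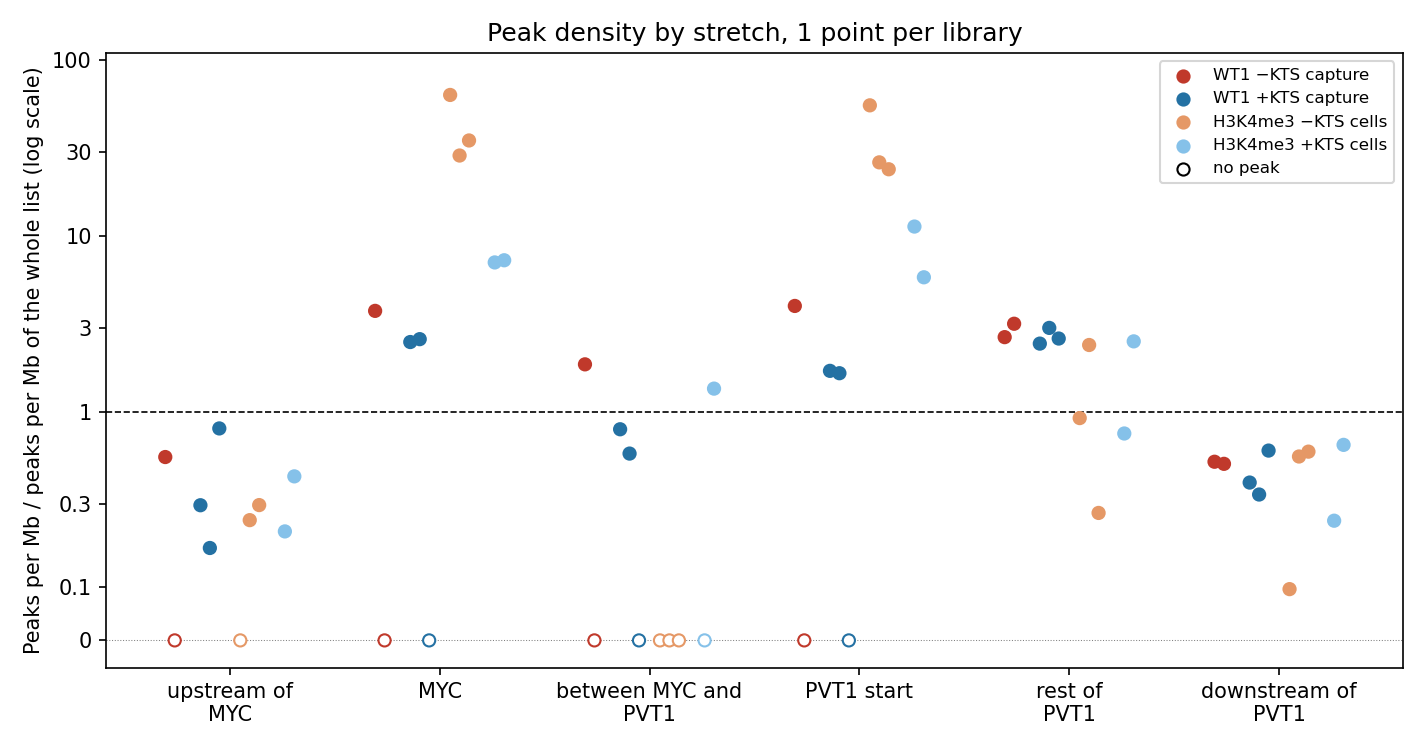
Relative density (peaks per Mb of a stretch over peaks per Mb of the whole list, log scale, dashed line at 1) in 6 stretches, 1 point per library, open circles for lists with no peak there. In the rest of PVT1 all 5 WT1 lists lie between 2.44 and 3.17, and at MYC and the PVT1 start the H3K4me3 lists lie highest.

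Few of the WT1 peaks in PVT1 lay at H3K4me3 regions called in at least 2 lists of the same cells. The rest of PVT1 held 0 such regions in −KTS cells and 2 in +KTS cells. For WT1 −KTS, 0 of 40 and 0 of 1 peaks was therefore certain. For WT1 +KTS it was 2 of 129, 2 of 109 and 0 of 9. Single H3K4me3 peaks there met WT1 lists of the same isoform in 0 of 3, 0 of 11 and 0 of 1 cases in −KTS cells (9.04%, 14.5% and 18.5% of whole lists). In +KTS cells this was 2 of 2 and 12 of 13 (81.8% and 89.0%). Over the whole stretch, the WT1 peaks at regions called in at least 2 lists were 6 of 113 (5.31%, exact Clopper-Pearson 95% interval 1.97% to 11.2%) and 1 of 2 in −KTS. In +KTS they were 8 of 304 (2.63%, 1.14% to 5.12%), 10 of 207 (4.83%, 2.34% to 8.71%) and 1 of 27 (3.70%, 0.0937% to 18.97%). Whole lists had 4.49% and 47.3% in −KTS and 3.13%, 7.15% and 2.45% in +KTS, each within the interval of its list here. The mean share was 27.7% ± 31.6 (SD, n = 2) in −KTS, against 3.72% ± 1.10 (SD, n = 3) in +KTS (two-sided exact permutation p = 0.1, the smallest possible). That difference of 23.9 percentage points rests on WT1 −KTS replicate 2 with its 2 peaks, and was 1.59 without it and 46.3 without WT1 −KTS replicate 1. The median gap from a WT1 peak to the nearest H3K4me3 region of the same cells was 71.1 and 60.4 kb in −KTS here, where whole lists had 25.1 and 0.031 kb. In +KTS it was 52.7, 47.3 and 67.6 kb, where whole lists had 32.8, 27.5 and 37.7 kb. The median gap was thus longer here than in the whole list in each of the 5 lists. For WT1 −KTS replicate 2 it rests on 2 peaks, 1 of them at the mark. A gap also depends on how densely the mark lies, and H3K4me3 was thinner here than over its whole list in each of the 5 H3K4me3 lists. Whether the gap is longer than this density gives was not tested.

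**Figure D4:**
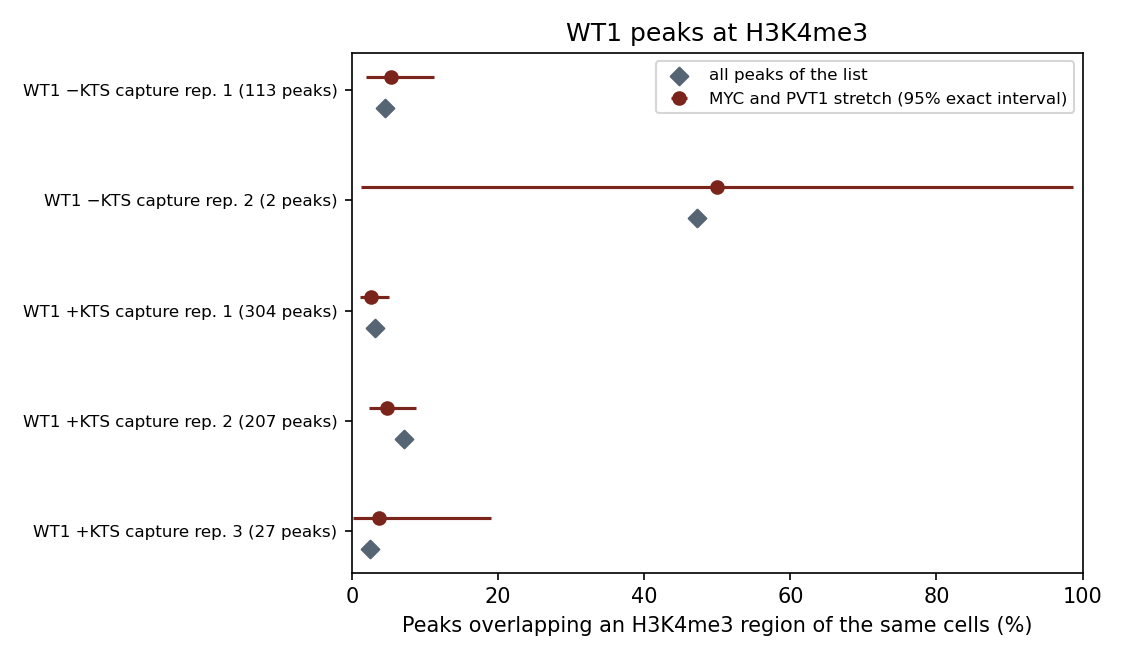
Percent of WT1 peaks that overlap an H3K4me3 region of the same cells in the MYC and PVT1 stretch (circles, with exact 95% intervals over peaks) and in the whole list (diamonds), for the 5 WT1 captures. Each diamond lies within the interval of its library, and the interval of WT1 −KTS replicate 2, with 2 peaks, spans almost the whole axis.

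Downstream of PVT1, peaks of both kinds were thin in every tagged and H3K4me3 list. WT1 −KTS had 49 peaks and 1 peak in this 1887 kb, and WT1 +KTS had 131, 77 and 13. The relative density was 0.519 and 0.505 in −KTS and 0.396, 0.338 and 0.601 in +KTS (exact permutation p = 0.6, adjusted p = 1). H3K4me3 had 2, 16 and 14 peaks in −KTS cells, against 4 and 21 in +KTS cells, or 0.0979, 0.556 and 0.593 and 0.240 and 0.648 in relative density (exact permutation p = 0.9, adjusted p = 0.9). Per Mb, the rest of PVT1 exceeded the downstream stretch 5.12 and 6.27 times in WT1 −KTS and 6.17, 8.87 and 4.34 times in WT1 +KTS. For H3K4me3 these ratios were 9.40, 4.31 and 0.448 in −KTS cells, against 3.14 and 3.88 in +KTS cells. In log2 the ratio was 2.58 ± 0.39 (SD, n = 5) in WT1 lists and 1.56 ± 1.63 (SD, n = 5) in H3K4me3 lists, a test chosen after the data were seen (two-sided exact permutation p = 0.183). Without H3K4me3 −KTS replicate 1, with 3 peaks against 2, the log2 difference of 1.02 became 1.44 (exact permutation p = 0.00794). Without H3K4me3 −KTS replicate 3, it became 0.343. Per the labels, capture and H3K4me3 aliquots were split from 1 lysate, so these lists need not be independent. Over the 4 pairs whose list names share a code or experiment number, the mean log2 difference was 0.33 ± 0.98 (SD, n = 4; exact sign-flip p = 0.625, where 0.125 is the smallest), with 3 of 4 pairs higher in WT1. That pairing was also chosen after the data were seen.

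The downstream stretch held a series of small H3K4me3 regions. Meetings with WT1 were counted over the whole stretch, not downstream alone. Of the 14 regions of the mark called in at least 3 of 5 lists over the whole stretch, 10 met peaks of at least 2 WT1 +KTS lists (59.4% of such regions over all chromosomes did) and 5 met a WT1 −KTS list (30.1%). These shares are near the background for 14 regions. The one found in all 5 lists was at 130950993 to 130952124, with best scores of 189, 671 and 755 in −KTS cells, against 883 and 530 in +KTS cells. The regions at 129355865 to 129356772 and 129470655 to 129471275, both in 4 lists, had scores of 88 to 352 and 115 to 523. They were picked after their values were seen. Neither was called in H3K4me3 −KTS replicate 1, while the shorter H3K4me3 +KTS replicate 1 called both. The region at 129470655 met all 3 WT1 +KTS lists and WT1 −KTS replicate 1. The region upstream of MYC at 128323760 to 128324659, also in 4 lists, met 2 WT1 +KTS lists and 1 WT1 −KTS list.

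Of the 113 merged WT1 −KTS places, 2 were called in both lists (1.77%, where 1.3% were over all chromosomes). The first lay inside PVT1 at 128929866 to 128930038 and was the best-scoring WT1 −KTS peak of the stretch, with scores of 346 and 509. It ranked 415 of 154732 peaks in replicate 1 and 150 of 3245 in replicate 2. WT1 +KTS replicates 1 and 2 also had peaks there, with scores of 56 and 68, at ranks of 292402 and 147688, and WT1 +KTS replicate 3 had none. No H3K4me3 list covered it, and the nearest mark was a peak of H3K4me3 −KTS replicate 2 at 128930142 to 128930674 with a score of 125. The second place, at 130951850 to 130952076, lay in the H3K4me3 region downstream that all 5 lists shared, with scores of 147 and 130. No WT1 +KTS list met it, although 1 met the H3K4me3 region around it. With 2 places, whether −KTS and +KTS differ there cannot be tested. Over all chromosomes, 47% of −KTS regions met a +KTS region of at least 2 lists, and here 1 of 2 did. Seen from WT1 +KTS, 1 of 163 regions met a −KTS region (0.334%). Of the 2 −KTS regions, 1 met H3K4me3 of the same cells (47.9%), as 1 of 14 H3K4me3 regions of −KTS cells met WT1 −KTS (3.59%). Of the 163 +KTS regions, 7 met H3K4me3 of the same cells (5.02%), and 6 of 8 H3K4me3 regions of +KTS cells met WT1 +KTS (57.7%). Between cells, 7 of 14 H3K4me3 regions of −KTS cells met those of +KTS cells (81%), and 6 of 8 in the other direction (87.6%).

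Of the 345 merged WT1 +KTS places, 17 were called in all 3 lists (4.93%, where 3.46% were over all chromosomes). Of these 17, 9 lay in the rest of PVT1, 6 downstream and 2 upstream of MYC. None lay at MYC, between the genes or at the PVT1 start. A further rule, calls in at least 2 lists, gave 163 places (47.2%, where 46.8% were over all chromosomes), of which 88 lay in the rest of PVT1 and 60 downstream. By worst rank, the best was inside PVT1 at 129031105 to 129031531, with scores of 183, 183 and 136 in replicates 1, 2 and 3. Next was 128969948 to 128970257, also inside PVT1, with scores of 124, 137 and 121. The third was downstream at 129908958 to 129909734, with scores of 142, 123 and 68, and was H3K4me3-marked in 3 of 5 lists. Neither of the 2 best met a WT1 −KTS or H3K4me3 peak. The place with the highest single score, 203 in replicate 1, was at 128974897 to 128975691 in PVT1, with 167 and 42 in replicates 2 and 3. Apart from the 3 best, every place ranked no better than 70.1% of the way down at least 1 of the lists.

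Sharing of peaks between WT1 lists was counted apart for PVT1 and for the remaining stretch. Of 132 PVT1 peaks of WT1 +KTS replicate 1, 93 (70.5%) were found in replicate 2, while 37.8% of its 172 other peaks here and 52.1% of its whole list were. Seen from replicate 2, 84.7% of 111 PVT1 peaks and 71.9% of 96 others were found in replicate 1 (80.8% of its whole list). All 9 PVT1 peaks of WT1 +KTS replicate 3 were found in replicates 1 and 2, where 88.9% and 50% of its 18 other peaks and 86% and 64.2% of its whole list were. Between isoforms, 64.3% of the 42 PVT1 peaks of WT1 −KTS replicate 1 and 60.6% of its 71 others were found in WT1 +KTS replicate 1 (66.7% of its whole list). In the other direction, 19.7% of the PVT1 peaks and 25% of the others of WT1 +KTS replicate 1 were found in WT1 −KTS replicate 1 (17.5%). A share found also depends on how much of a stretch the other list covers. WT1 +KTS replicate 2 covered 10.6% of the rest of PVT1, 1.11% downstream of PVT1 and 0.537% upstream of MYC. Whether sharing in PVT1 is higher than this coverage gives was not tested. These shares are over peaks, which are not replicates, and were not tested.

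Between MYC and PVT1, in 43 kb, H3K4me3 was nearly absent, with 0 peaks in −KTS cells, against 0 and 1 in +KTS cells. WT1 had 4 and 0 peaks in −KTS and 6, 3 and 0 in +KTS. The relative density of WT1 between the genes was 1.86 and 0 in −KTS, and 0.795, 0.578 and 0 in +KTS. Upstream of MYC, over 543 kb, WT1 had 15 and 0 peaks in −KTS and 28, 11 and 5 in +KTS. The relative density upstream was 0.552 and 0 in −KTS and 0.294, 0.168 and 0.804 in +KTS, with overlapping groups (exact permutation p = 0.7, adjusted p = 1).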

How the data were processed

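Each of 13 of the 22 libraries in the labels had 1 deposited peak list with a whole-number score per peak, which is the authors' own value. The 9 input libraries were not analysed here. Per the submitters' processing notes, Bowtie2 2.2.7 and MACS2 2.1.1.20160226 were used on hg19. Which control and threshold were used is not given in the sources used here. Names of the lists from −KTS cells contain the word pooled, without saying what was pooled. No summits, read counts or depth came with the lists, and no genome of hg19 was used.

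Only chromosomes 1 to 22 with X and Y were kept, and peaks were placed by their start. The genome length was the sum of the largest peak ends. Regions were merged peaks sharing at least 1 bp. WT1 regions that met an untagged peak were left out. Groups were compared with two-sided exact permutation tests on the absolute difference of means, and 6 stretches were adjusted by the Benjamini-Hochberg method. Dense bins and their runs, H3K4me3 regions of 3 or 4 lists, WT1 places at MYC and the PVT1 start, and the tests named as such were picked after values were seen. The members, stretches and rules for naming places were chosen with earlier results of these data known: named were regions of H3K4me3 in all 5 lists, places of an isoform in all of its lists (the best by worst rank) and untagged peaks. Python 3.11.15, numpy 2.4.6 and pandas 2.3.3 were used, and counting was checked on simulated lists against bedtools 2.31.1.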

Additional observations from a re-analysis of the deposited data

How the results depend on the processing

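The number of lists, their unequal length and the unknown depth limit every comparison. Of the alternatives, 21 reversed a direction, 12 moved a count or share and 4 passed a threshold that the main value missed. Most tests here compare 2 or 3 lists with 3 and could not reach 0.05, so an unchanged call says nothing of stability. With a score of at least 50, tagged exceeded untagged by 1.53 in log10 of peak number, not scaled by list length (exact permutation p = 0.0357). Leaving out 1 library gave 1.42 to 1.92. The ratio of PVT1 to downstream, WT1 over H3K4me3, gave 0.343 to 1.44 in log2 without 1 library.

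Several differences of −KTS minus +KTS turned in sign, all of them differences that passed no test. Leaving out 1 library gave −0.000879 to 0.0116 for the WT1 share of list and −0.00562 to 0.0405 for that of H3K4me3. For WT1 relative density it gave −0.422 to 0.131 upstream of MYC, −1.69 to 2.06 at MYC, −0.458 to 1.40 between the genes, −1.12 to 2.88 at the PVT1 start and −0.0261 to 0.484 in the rest of PVT1. For H3K4me3 it gave −1.32 to 0.443 in the rest of PVT1, −0.232 to 0.176 downstream and −0.984 to 0.205 kb covered at MYC. A score of at least 50 gave 0.0110 upstream of MYC, a 2 kb flank −0.330 at MYC and −1.165 at the PVT1 start, and a 20 kb flank −0.651 between the genes. The cause was not tested.

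The labels do not say that a replicate number pairs samples, and in +KTS cells the codes of capture and H3K4me3 lists cross the numbers. With a replicate block the WT1 difference was 0.0454 upstream of MYC and −0.666 at MYC, and the H3K4me3 difference in the rest of PVT1 was 0.0257, against −0.146, 0.181 and −0.439 without it. The block gave +KTS against untagged 1.92 (exact sign-flip p = 0.25, the smallest for 3 pairs), so no call could change. Paired by codes or experiment numbers in list names, the ratio of PVT1 to downstream differed by 0.331 in log2 (exact sign-flip p = 0.625). Correlations of +KTS with the untagged list of the same number were 0.00809, −0.0461 and 0.000160 over 1 Mb bins.

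Region counts followed the rule for calling. Equal lists gave 1 WT1 −KTS and 0 WT1 +KTS regions, and 1.19% of bins filled in WT1 +KTS. A score of at least 50 gave 84 WT1 +KTS regions, and 100 kb bins 36.9% filled in H3K4me3 −KTS. Calls in every replicate gave 17 WT1 +KTS and 5 H3K4me3 −KTS regions. Calls in any replicate gave 113 WT1 −KTS, 345 WT1 +KTS, 2 untagged, 45 H3K4me3 −KTS and 42 H3K4me3 +KTS regions.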

Other observations

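The end of the stretch, in the 2 bins from 130.90 to 131.00 Mb, was picked after its values were seen. WT1 −KTS had 15 peaks and 1 peak there, and WT1 +KTS had 28, 16 and 4, or 3.00, 9.54, 1.60, 1.33 and 3.49 times the mean of all bins. H3K4me3 had 1, 2 and 2 peaks in −KTS cells, against 2 and 4 in +KTS cells. Untagged replicate 1 had 1 peak there.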
